A study of Homo sapiens with 2 samples.

Results

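NRF1 (NFE2L1) was mapped by ChIP-seq in HCT116, a human colorectal carcinoma cell line, after 16 h in 1 µM MG132, an inhibitor of the proteasome. The sites described here are the peaks whose centre lay within 500 bp of a transcription start site (TSS) in the study's annotation sheet, matched to the deposited peaks by chromosome, start and end. They number 482 of 5683 peaks (8.48%), and the same sheet places a further 330 peaks between 500 bp and 2 kb from a TSS. The remaining 4871 peaks were further away or not listed, and 289 of these lie within 500 bp of a start in the GENCODE annotation. Only 1 ChIP library, from an antibody to NRF1, was analysed and the input library of MG132-treated cells was not analysed here, so no value has a replicate error and the reads behind each peak are unknown. Each peak carries the score of the peak caller MACS, 10 times the negative log10 of its p-value, and the lowest score of the list, 50, stands for 1e-05. Tests below compare groups of peaks within this list, and the 95% Wilson intervals of shares cover counting error only. No library of untreated cells was analysed, so the sites cannot be tied to MG132 by these data.

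NRF1 is a transcription factor of the CNC family that is held at the endoplasmic reticulum and degraded while the proteasome works. Its DNA target is the antioxidant response element (ARE), which it recognises as a heterodimer with a small MAF protein. Cells that lack proteasome activity stabilise NRF1 and make new subunits through it, known as the bounce-back of the proteasome. Its relative NRF2 binds the same element at genes of glutathione, thioredoxin and quinone metabolism.

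The ARE was searched on both strands in 2 forms, the degenerate form, TGACNNNGC or TGAGNNNGC, and within it the full form, TGACTCAGC or TGAGTCAGC, which contains the AP-1 site TGANTCA. For each functional group of genes with a full ARE at a TSS-proximal site, the lines that follow give the one nearest to the centre of the group's highest-scoring site of that kind, since they show the element that the results turn on. All are hg19 sequence, read 5′ to 3′ on the strand named, with 10 bases on each side and the ARE in capitals.
PSMA5, chr1:109968711-109968739, plus strand: gacccaggggTGACTCAGCggtaggacaa
PSMD1, chr2:231921804-231921832, minus strand: tcaccggcccTGACTCAGCtaaaagccgg
SQSTM1, chr5:179247543-179247571, minus strand: ggcctggccaTGACTCAGCaatatcctca
GSTP1, chr11:67351207-67351235, plus strand: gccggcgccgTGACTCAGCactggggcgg
SRXN1, chr20:634098-634126, minus strand: aaactcacccTGAGTCAGCccgcccgggc
ME1, chr6:84140889-84140917, minus strand: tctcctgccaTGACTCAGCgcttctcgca
MAFG, chr17:79881483-79881511, plus strand: cgagtcacgcTGACTCAGCacattgcctc
CREM, chr10:35416601-35416629, minus strand: cgggaccgaaTGACTCAGCtgcgaggccc
FKBP5, chr6:35695935-35695963, plus strand: gagaacagccTGACTCAGCagctgggtaa
PSAP, chr10:73611108-73611136, plus strand: aacagcgcccTGACTCAGCgcctctgagg
The elements of SRXN1, ME1 and GSTP1 ran along the strand of the gene, that of MAFG is a palindrome that reads as a full ARE on both strands, and those of the other genes shown ran against the strand of the gene.

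Of these full AREs, the one of MAFG lay 4 bp from the centre of its peak and those of SQSTM1 and SRXN1 19 and 20 bp. The elements of PSMA5 and ME1, at 182 and 306 bp, fell outside the central 200 bp. That of PSMD1, at 99 bp, was not wholly inside it. Relative to the TSS, the elements of PSMD1, PSMA5, GSTP1, CREM, FKBP5 and ME1 lay 240, 345, 155, 230, 411 and 35 bp downstream. Those of SQSTM1, SRXN1, MAFG and PSAP lay upstream, at -285, -98, -53 and -40 bp. These distances are from the TSS of the annotation sheet. Features were read from the canonical (main) transcripts of protein-coding genes in GENCODE, whose starts can differ from the sheet. The elements lay in the first intron at PSMA5, PSMD1, MAFG and CREM and in a later intron at SRXN1. Those of SQSTM1, GSTP1, ME1, FKBP5 and PSAP lay outside these transcripts, and other transcripts were not counted.

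Many TSS-proximal sites held no full ARE but a word that differed from it by 1 letter. The next lines give such a word for the highest-scoring site without a full ARE in 9 groups where the closest word was 1 letter away, with the 9 letters of the closest word in the central 200 bp in capitals.
PSMA1, chr11:14541684-14541712, minus strand: gctccggcagTGATTCAGCatctccggcc
PSMB7, chr9:127177494-127177522, minus strand: gcggctagtgTGACTCAGGggaatcaggg
PSMC3, chr11:47447781-47447809, minus strand: gagagtccagTGACTCGGCaggagaagat
PSMD14, chr2:162165178-162165206, minus strand: ctgggcaacgTGACTCAGGaaagcacggg
UBQLN1, chr9:86322931-86322959, minus strand: cagccggggaTGACTCGGCgacgccgcca
TXN, chr9:113019216-113019244, minus strand: ccggtcaccgTTACTCAGCactttgtggg
NADK, chr1:1690399-1690427, minus strand: ccaagcagagTGACGCAGCgggctaggag
KEAP1, chr19:10613460-10613488, plus strand: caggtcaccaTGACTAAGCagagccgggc
PTGES3, chr12:57082075-57082103, plus strand: cggcggctggTGACGCAGCaaaatgcccg
Counted from 1 at the 5′ end of the word, the differing letter was at position 9 in PSMB7 and PSMD14, 7 in PSMC3 and UBQLN1, 6 in KEAP1, 5 in NADK and PTGES3, 4 in PSMA1 and 2 in TXN. The words of PSMA1, PSMB7, PSMD14 and TXN match neither form of the ARE. PSMA1, PSMD14 and TXN held a degenerate ARE elsewhere in the peak, whereas PSMB7 held none.

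The scores of the 482 sites ran from 50.12 to 1395.6, with a median of 109.47 and quartiles of 67.9 and 248. The median score was 89.33 in the 330 sites between 500 bp and 2 kb and 91.17 in the 4871 remaining peaks. By construction 50% of all peaks lie above the list's median score, and 282 of the TSS-proximal sites (58.5%) did so. This share was 47.3% (156 of 330) at 500 bp to 2 kb and 49.2% (2558 of 5201) in all other peaks together. The TSS-proximal share was higher than both (Fisher's exact test, two-sided, adjusted over 14 tests, adjusted p = 0.00407 and 0.000259, with differences of 11.2 percentage points, 95% interval 4.25 to 18.1, and 9.32, 4.67 to 13.9). A score of at least 100 was reached by 264 sites (54.8%), against 44.3% of all peaks. The TSS-proximal sites supplied 33 of the 100 highest-scoring peaks, 101 of the top 500 and 156 of the top 1000.

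The width of the TSS-proximal peaks ran from 265 to 1515 bp. Its median was 541 bp, beside 522.5 bp at 500 bp to 2 kb and 497 bp in the remaining peaks. Wider than the median of the list, as 49.7% of all peaks were, were 283 of 482 sites (58.7%). This was more than among all other peaks (48.9%, adjusted p = 0.000191, Fisher's exact test). Against the sites at 500 bp to 2 kb (56.1%) the difference was 2.65 percentage points with an interval of -4.23 to 9.56 and an adjusted p of 0.549.

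An ARE of any form was present in 392 of the 482 sites (81.3%, 77.6 to 84.6%), beside 87.4% of all peaks. It was less frequent than at 500 bp to 2 kb (291 of 330, 88.2%, Fisher's exact test, adjusted p = 0.0147) and than in all other peaks (4566 of 5191, 88.0%, adjusted p = 0.000254). The 10 peaks with undetermined bases or on contigs were left out of these counts, and none of them was TSS-proximal. In flanks of the same length, 2 kb beyond each peak, the degenerate form also occurs often, in 37.6% of the TSS-proximal flanks. The call against the sites at 500 bp to 2 kb did not hold in the central 200 bp (68.7 against 74.5%, beside 80.1% of all peaks, Fisher's exact test, adjusted p = 0.124).

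The 2 forms were divided differently near a TSS. A full ARE was present in 125 sites (25.9%, 22.2 to 30.0%), where 61.3% of all peaks held one, and only a degenerate ARE in 267 sites (55.4%). In 90 sites (18.7%) no ARE was found. The full form occurred in 45.2% of the sites at 500 bp to 2 kb (149 of 330) and in 64.6% of all other peaks (3353 of 5191). Both differences passed Fisher's exact test (odds ratio 0.426, adjusted p = 1.35e-07, and odds ratio 0.192, adjusted p = 6.84e-60). In the flanks of the TSS-proximal sites the full ARE was present in 9 of 482 (1.87%). Restricted to the central 200 bp, 114 sites (23.7%) held a full ARE, against 57.8% of all peaks. At least 2 matches to the full form were counted in 13 sites (2.70%), beside 4.16% of all peaks. In 6 of these sites, MAFG among them, the matches were 1 palindromic element read on both strands, so that 7 sites (1.45%, 0.705 to 2.97%) held at least 2 separate full AREs, beside 3.44% of all peaks.

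Strong peaks followed the same division. Among peaks with a score of at least 250, a full ARE was present in 48 of 120 TSS-proximal sites (40.0%, 31.7 to 48.9%), in 17 of 37 sites at 500 bp to 2 kb (45.9%, 31.0 to 61.6%) and in 400 of 452 peaks further away or unlisted (88.5%, 85.2 to 91.1%). Between 100 and 250 the shares were 22.2, 59.6 and 75.2%, and under 100 they were 20.6, 37.0 and 56.6%. The interval of the TSS-proximal sites lay below that of the peaks further away or unlisted in all 3 score classes, and overlapped that of the 500 bp to 2 kb sites only at scores of at least 250. An ARE of any form was present in 114 of the 120 TSS-proximal sites of that class (95.0%) and in 165 of the 218 under 100 (75.7%). These score classes were chosen after the data were seen. The forms were read anywhere in the peak, and peaks with higher scores were wider. In the TSS-proximal sites split by score into 4 equal classes, the median width was 416 bp in the lowest and 742 bp in the highest. The part of width in these shares was not tested.

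**Figure D1:**
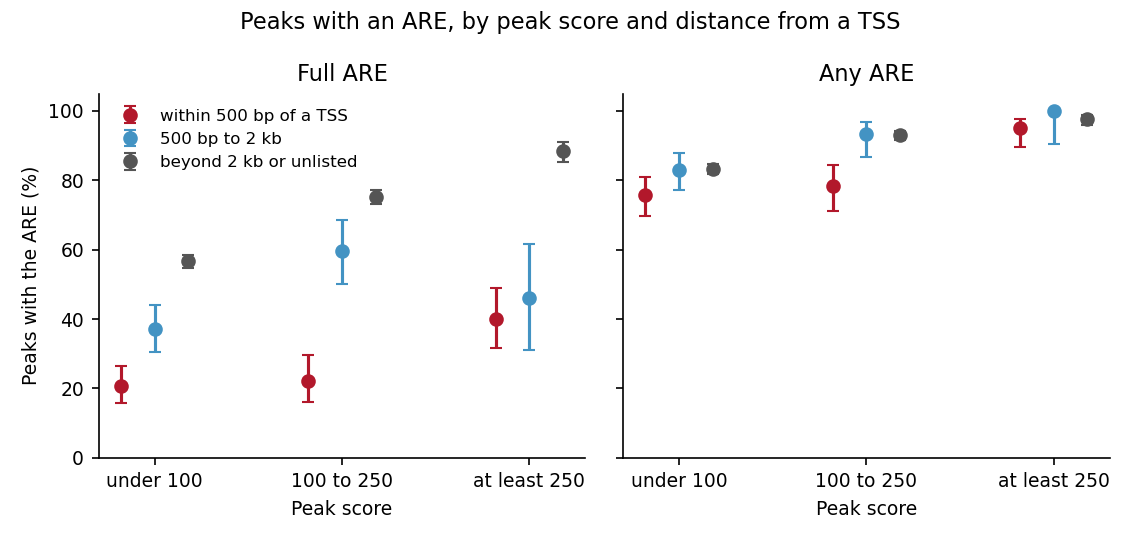
Share of peaks with a full ARE (left) and with any ARE (right) anywhere in the peak, in percent, by score class. The groups are sites within 500 bp of a TSS, sites from 500 bp to 2 kb and peaks further away or unlisted. Points are shares and bars 95% Wilson intervals; at scores of at least 250 the full ARE was present in 40.0% of TSS-proximal sites and 88.5% of peaks further away or unlisted, while any ARE was present in 95.0 and 97.8%.

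Base composition moved with these shares. The central 200 bp of TSS-proximal sites had a median GC content of 62.3% and a CpG ratio (observed over expected) of 0.769, beside 66.5% and 0.818 in 200 bp windows on the TSSs of protein-coding genes and 45% and 0.184 in peaks further away or unlisted. Where the CpG ratio was at least 0.6, a full ARE was present in 60 of 329 TSS-proximal sites (18.2%, 14.4 to 22.8%), 23 of 75 sites at 500 bp to 2 kb (30.7%, 21.4 to 41.8%) and 90 of 174 remaining peaks (51.7%, 44.3 to 59.0%). Below 0.6 the shares were 42.5% (65 of 153, 34.9 to 50.4%), 49.4% (126 of 255, 43.3 to 55.5%) and 66.4% (3114 of 4687, 65.1 to 67.8%). The order of the 3 groups was the same on both sides of this limit, which was also chosen after the data were seen. On both sides, however, the intervals of the TSS-proximal and the 500 bp to 2 kb sites overlapped. The part of base composition in the difference was not tested.

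Within the TSS-proximal sites the score moved with the form of the ARE. The median score was 170.92 with a full ARE, 110.34 with a degenerate ARE only and 81.48 without one. Above the median of the TSS-proximal sites were 74 of 125 sites with a full ARE (59.2%) and 32 of 90 without any (35.6%), a difference that passed Fisher's exact test (odds ratio 2.62, adjusted p = 0.00202). For sites with a degenerate ARE only the share was 50.6% (135 of 267), and the difference from the full ARE, 8.64 percentage points with an interval of -1.95 to 18.8, did not pass it (Fisher's exact test, adjusted p = 0.18). With the forms read in the central 200 bp alone, the difference between full and none did not pass either (57.0 against 45.7%, Fisher's exact test, adjusted p = 0.128). In the sites ranked by score and split into 4 equal classes, from the lowest to the highest, a full ARE was present in 18.2, 24.2, 21.7 and 39.7% of the sites.

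The closest word to the full ARE was then sought in the central 200 bp, a search added after the data were seen. Besides the 114 sites with the full form, 147 sites (30.5%, 26.6 to 34.8%) held a word that differed from it by 1 letter, whereas 1667 of 19862 promoter windows (8.39%) had such a word as their closest. Together, 54.1% of the TSS-proximal sites were within 1 letter of the full ARE, against 73.0% at 500 bp to 2 kb, 86.3% in the remaining peaks and 8.89% of promoter windows. The letter that differed was most often at position 5 (40 of 147 sites), then at 7 (30) and 9 (20). In promoter windows it was most often at position 3 (346 of 1667), 5 (289) and 1 (288). In the remaining peaks it was most often at 5 (220 of 1168), 9 (210) and 4 (196). Among the sites without an ARE, 30 of 90 (33.3%) held a word 1 letter away.

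Of the 392 sites with an ARE, the match nearest to the centre of the peak read TGACTCAGC in 85, TGAGTCAGC in 25, and TGACACAGC and TGACTCGGC in 19 each, and 103 different words were counted in all. The full ARE nearest to the centre lay a median of 36 bp from it, and within 100 bp in 116 of 125 sites (92.8%), beside 95.2% in other peaks. Where the strand of the TSS could be matched, the full ARE ran in the direction of the gene in 58 of 119 sites (48.7%, 39.9 to 57.6%), and an even division was not rejected by the exact binomial test (two-sided, p = 0.855). Among sites with exactly 1 match, which leaves out the palindromes, it did so in 51 of 107 (47.7%, exact binomial test, p = 0.699).

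Other promoter motifs were compared over the central 200 bp, both strands, as a description. The AP-1 site TGANTCA was present in 33.4% of TSS-proximal sites, 59.7% of those at 500 bp to 2 kb, 78.9% of the remaining peaks and 3.04% of promoter windows. Of the 161 TSS-proximal sites with it 114 held a full ARE in the peak, and in the 90 sites without an ARE it was present in 28 (31.1%, 22.5 to 41.3%). The GC box GGGCGG, bound by SP and KLF factors, was present in 42.3% of TSS-proximal sites and 53.7% of promoter windows, and the ETS site CCGGAA in 19.5 and 17.8%. The CCAAT box was present in 19.5% of the sites and 25.2% of promoter windows. The cyclic AMP response element (CRE) occurred in 9 sites (1.87%) against 2.01% of promoter windows. The palindromic site of the nuclear respiratory factor alpha-Pal, an unrelated protein whose gene carries the symbol NRF1, was present in 1.24% of the sites and 1.25% of promoter windows.

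**Figure D2:**
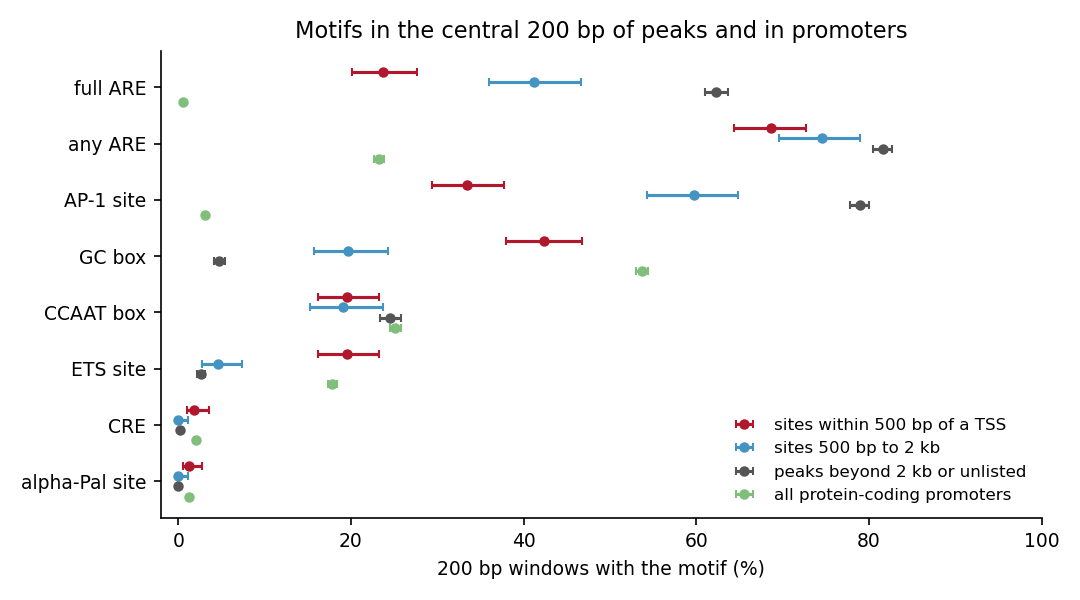
Share of 200 bp windows, in percent, that held each motif on either strand, for TSS-proximal sites, sites at 500 bp to 2 kb, peaks further away or unlisted, and windows on the TSSs of protein-coding genes. Points are shares and bars 95% Wilson intervals; the TSS-proximal sites lay with the promoter windows for the ETS, CRE and alpha-Pal motifs and far above them for the full ARE (23.7 against 0.493%) and the AP-1 site (33.4 against 3.04%).

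The centres of the sites were spread over both sides of the TSS, with 213 upstream, 266 downstream and 3 at the TSS itself. The most populated 100 bp lay just downstream of the TSS, with 87 sites including those 3, and the next just upstream and from 100 to 200 bp downstream, with 75 each. A full ARE was present in 66 of 213 upstream sites (31.0%) and 59 of 266 downstream sites (22.2%), a difference of 8.81 percentage points with an interval of 0.882 to 16.8 that did not pass Fisher's exact test after adjustment (adjusted p = 0.0561). It passed it with the limit set at 250 bp (32.0 against 16.4%, Fisher's exact test, adjusted p = 0.00266). The share of sites above the median score was 49.3% upstream and 51.1% downstream (difference -1.83 percentage points, -10.7 to 7.12, Fisher's exact test, adjusted p = 0.768). Of the full AREs nearest to the centre, 37 of the 119 with a known TSS strand lay in the 100 bp before the TSS, the most in any 100 bp.

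**Figure D3:**
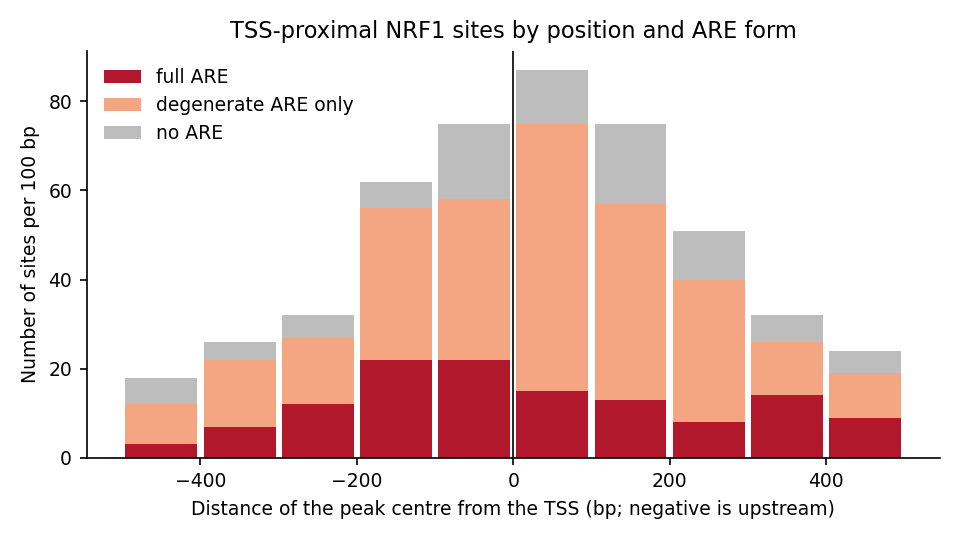
Number of TSS-proximal sites per 100 bp of distance between the peak centre and the TSS (negative is upstream), stacked by the form of the ARE in the peak. Of 87 sites just downstream of the TSS 15 held a full ARE, and of 75 just upstream 22 did.

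By the classes of the annotation sheet, 345 sites lay in the promoter, 63 in introns, 30 in 5′ UTRs, 20 in exons, 15 in noncoding transcripts and 9 at transcription end sites. A second reading used only the canonical (main) transcripts of protein-coding genes in GENCODE. Of the centres, 229 were outside these transcripts, 97 in the first intron, 70 in the 5′ UTR, 45 in a later intron, 37 in a coding exon and 4 in a 3′ UTR. Noncoding and alternative transcripts were not counted, so a centre outside can still lie in one of those. At 63 sites (13.1%) starts of different protein-coding genes on opposite strands lay within 500 bp of the centre. Of these sites 14.3% held a full ARE, against 27.7% of the rest. Whether such genes pointed away from each other was not checked. For 399 sites the nearest promoter had the accession of a protein-coding transcript and for 83 that of a noncoding one, although 17 of those 83 belong to protein-coding genes, PSMD1 among them. Median scores were 109.54 and 103.81. The share above the median score was 50.1 and 49.4% (difference 0.728 percentage points, -10.9 to 12.3, adjusted p = 1), and a full ARE was present in 25.1 and 30.1% (difference -5.06, -16.4 to 4.82, adjusted p = 0.43, Fisher's exact test).

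The site with the highest score was in UNKL, a gene for a RING finger protein related to unkempt, at chr16:1428702-1429899 with a score of 1395.6, 384 bp downstream of the TSS and with 2 full AREs. These lay at -220 and 341 bp from the centre of the peak, outside the central 200 bp. Of the 10 highest-scoring sites, 3 belonged to lid and base subunits of the 19S regulatory particle, PSMD14 (1128.13), PSMD1 (925.88) and PSMD11 (880.07). MAFG (1022.83), a small MAF partner of CNC factors, ME1 (891.96), the cytosolic malic enzyme that makes NADPH, NPLOC4 (873.71), a cofactor of the unfoldase p97, and SRXN1 (803.86), which reduces overoxidised peroxiredoxins, were also among them. CLTC, the clathrin heavy chain, had a score of 996.87 with no ARE in its 1064 bp peak. The tenth was LOC100652758 (803.15), a noncoding transcript beside the promoter of G3BP1. The 3 lowest were ECI2-DT (50.12), NDUFV3 (50.16) and E2F3 (50.22), of which NDUFV3 had no ARE and the others a degenerate one.

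After CLTC, the highest scores without an ARE were those of the proteasome subunit genes PSMB7 (614.43) and PSMD4 (380.09), of CWC25 (345.97), a splicing factor, and of CLPB (270.99), a mitochondrial disaggregase. Besides UNKL and PSMD11, the highest-scoring sites with 2 separate full AREs were the pair named after MIR4435-1, at chr2:112078512-112079074 (349.33) and chr2:87928923-87929572 (280.97). Because 1 accession names both places, reads may be shared between near-identical copies, and their scores are uncertain. The same holds for 4 sites on chromosomes 14, 15 and 19 that the sheet names after the small nuclear RNA RNU6-2 (51.21 to 154.26). At noncoding promoters the highest scores after PSMD1 and LOC100652758 were those of MIR4710 (767.65, full ARE), LINC-PINT (665.67, degenerate ARE) and LINC01270 (594.4, degenerate ARE). An annotated start of MKLN1 also lay within 500 bp of the LINC-PINT site.

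Just inside the limit of 500 bp lay ACYP2 (at 491 bp, score 641.17) and TUBB4B (493 bp, 61.78). Just outside lay WDR81 (505 bp, 814.11), TMSB4X (-507 bp, 51.34) and PSMD12 (510 bp, 430.05).

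Genes were then grouped by function in 20 lists with 378 genes in all, of which 100 had a TSS-proximal site. These genes held 101 sites (21.0%), because ZFAND5 had 2, and the median score of these sites was 266.31, against 96.07 at the other 381. As background, 412 of 20136 protein-coding genes (2.05%) carried the name of a TSS-proximal site, and 741 (3.68%) had an annotated start within 500 bp of a peak centre. The lists were drawn up with the gene names of the sites known, so the counts are a description and were not tested.

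**Figure D4:**
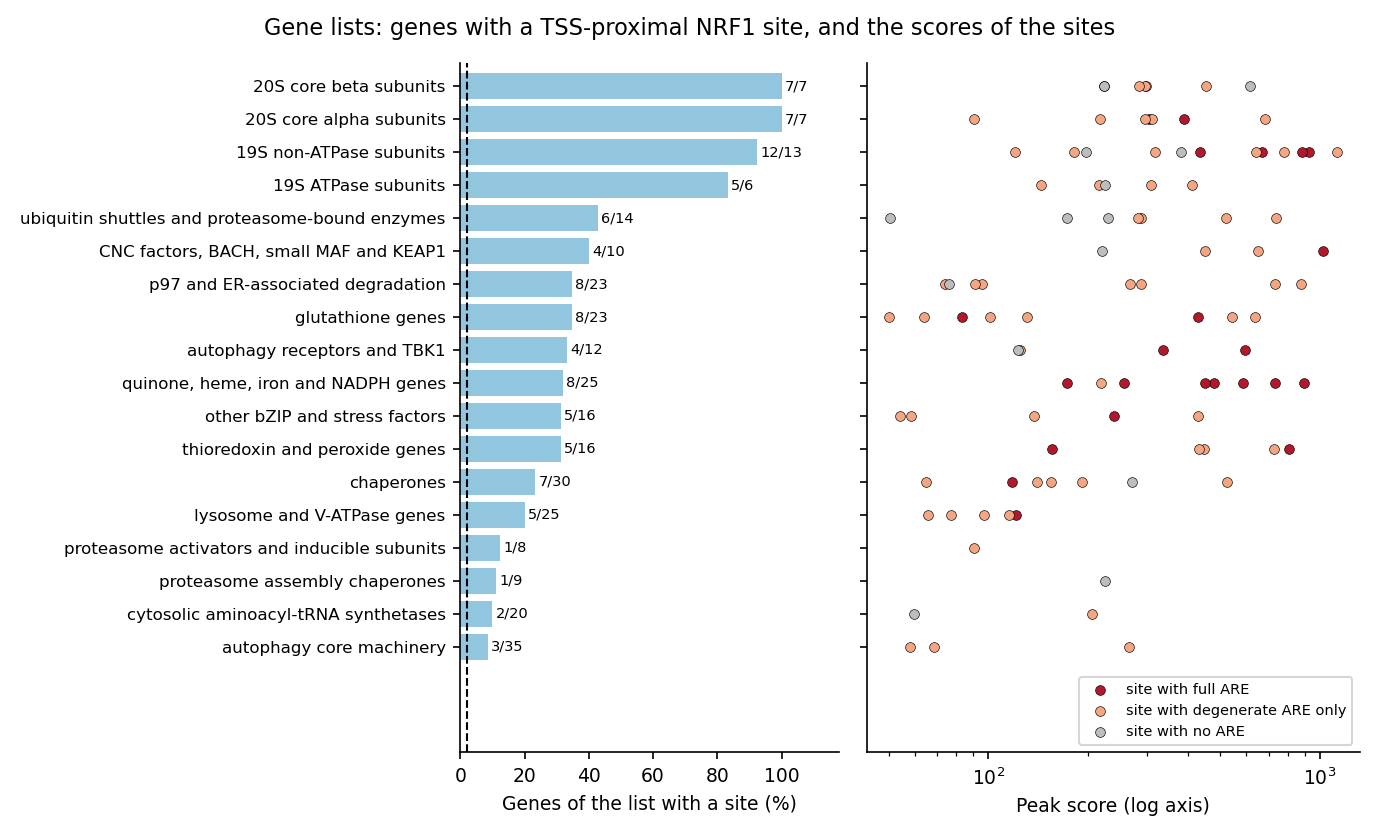
Left, share of the genes of each list with a TSS-proximal site in percent, with the count beside each bar and the share of all protein-coding genes (2.05%) as a dashed line. Right, score of each site on a log axis, coloured by the form of its ARE; all 14 genes of the 20S core had a site, against 3 of 35 genes of the autophagy core machinery (5 with any annotated start). The plot leaves out 2 of the 20 lists.

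The proteasome was the most complete group. Of 33 subunit genes, 31 had a TSS-proximal site, with a median score of 308.61 and a range of 90.61 to 1128.13. In 30 of the 31 the score was at least 100 and in 21 at least 250, beside 54.8 and 24.9% of all TSS-proximal sites. The centre lay downstream of the TSS in 28, beside 55.2% of all TSS-proximal sites, and upstream only in ADRM1, PSMB6 and PSMB3. A full ARE was present in 6 of the 31 sites and an ARE of any form in 26, beside 25.9 and 81.3% of all TSS-proximal sites. In the central 200 bp 4 of the 31 held the full ARE, 13 were 1 letter from it and 12 were 2 letters from it. Over all TSS-proximal sites these 3 shares were 23.7, 30.5 and 34.4%, and in promoter windows 0.493, 8.39 and 52.4%. The subunits without a site of their own were PSMC5, whose start was 68 bp from a peak (330.95) that the sheet assigned to the neighbour FTSJ3, and PSMD12, 10 bp outside the limit.

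**Figure D5:**
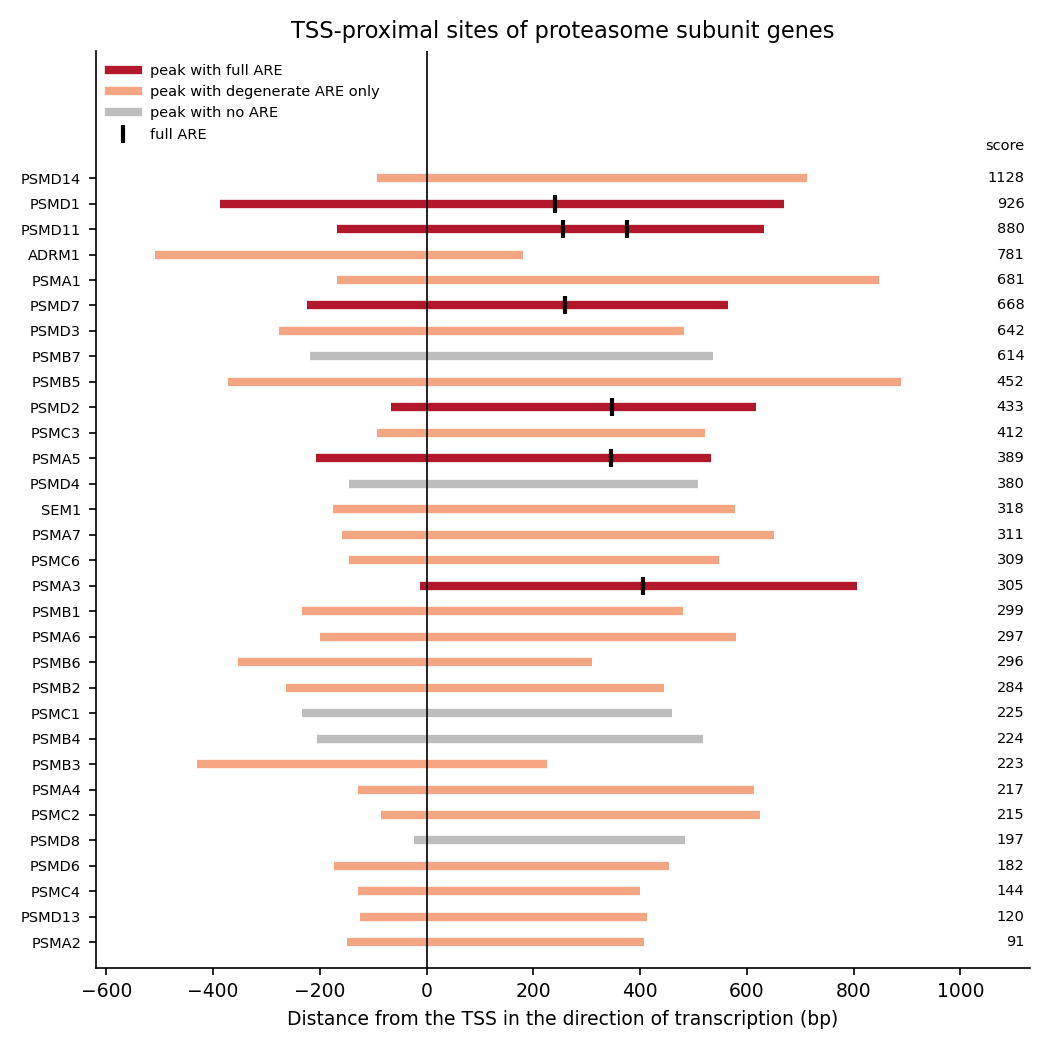
TSS-proximal peaks of 31 proteasome subunit genes, drawn by their distance from the TSS in bp in the direction of transcription and ordered by score (printed at the right). Colour gives the form of the ARE and black ticks mark full AREs, which were present in 6 peaks and lay downstream of the TSS in each of them.

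All 7 alpha subunits, which form the outer rings and the gate of the 20S core, had a site, from 90.61 at PSMA2 to 681.29 at PSMA1. PSMA5 (389.07) and PSMA3 (305.06) held a full ARE. All 7 beta subunits also had one, and none held a full ARE. The catalytic subunits PSMB7 (trypsin-like), PSMB5 (chymotrypsin-like) and PSMB6 (caspase-like) scored 614.43, 451.89 and 296.08, and PSMB1, PSMB2, PSMB4 and PSMB3 between 223.26 and 299.14. In PSMB1 and PSMB2 the closest word was TGAGACAGC, 1 letter from the full ARE. Of the 19S ATPases, which unfold substrates, 5 of 6 had a site, from 144.19 at PSMC4 to 412.41 at PSMC3, again without a full ARE. Of the 13 non-ATPase subunits 12 had a site, with a median of 537.66. Among them PSMD14, the deubiquitinase of the lid, scored 1128.13 with a degenerate ARE. The ubiquitin receptor ADRM1 scored 781.39 with the closest word TGACACAGC. The receptor PSMD4 scored 380.09 without an ARE, and its closest word was TGACTCAGG, also 1 letter from the full ARE. A full ARE was present at PSMD1, PSMD2, PSMD7 and PSMD11, and PSMD13 had the lowest score, 119.94.

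Genes that assemble, activate or feed the proteasome formed 3 of the lists described here. POMP (224.9, no ARE), the maturation factor of the 20S core, was the only one of 9 assembly chaperones with a site by the sheet. PSMG3 and PSMD9 have a start within 500 bp of a peak that the sheet gave to a neighbour. PSME4 (90.53) was the only one of 8 activators and inducible subunits. Of 14 ubiquitin shuttles and proteasome-bound enzymes 6 had a site, led by UBQLN1 (735.45) and RAD23B (520.94), which carry ubiquitinated proteins to the proteasome. ZFAND5, which binds the proteasome, had sites with 281.88 and 229.76. None of the sites that the sheet gave to these genes held a full ARE. The peak near PSMD9 (108.16) held one. So did a peak (307.41) 199 bp from a start of ZFAND2A, another gene of the shuttle list, that the sheet gave to a neighbour.

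In the group of p97 and endoplasmic reticulum-associated degradation 8 of 23 genes had a site by the sheet, from 74.07 to 873.71, and none held a full ARE. They included p97 itself (VCP, 730.46), its cofactors NPLOC4 (873.71) and UFD1 (288.37), and NGLY1 (95.47), the glycanase that acts on NRF1. By the reference annotation, starts of NSFL1C, PLAA and UBXN4 lay 122, 43 and 18 bp from the centres of peaks that scored 877.86, 433 and 176.74. The sheet put these peaks beyond the limit or at a neighbour, and counting them makes 11 of the 23 genes. Of the autophagy receptors and TBK1 4 of 12 had a site. SQSTM1 (p62), the receptor for ubiquitinated aggregates, scored 593.29, and TBK1, a kinase of p62, 335.97, both with a full ARE. The ER-phagy receptor RETREG1 and the mitophagy receptor BCL2L13 scored 124.59 and 123.02 without one. Of 35 genes of the autophagy core machinery only VMP1 (266.31), ATG4D (68.31) and ATG5 (57.99) had a site. The peaks of GABARAPL1, at -527 and 516 bp, and MAP1LC3B, at 580 bp, lay outside the limit by the sheet. By the reference annotation these peaks have a start of GABARAPL1 95 and 23 bp and of MAP1LC3B 352 bp from their centre, which makes 5 of the 35 genes. The GABARAPL1 peak at 516 bp scored 302.72 with a full ARE. Its peak at -527 bp (139.88) and the peak of MAP1LC3B (54.64) held no ARE.

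Among redox genes the full ARE was most frequent in the group of quinone, heme, iron and NADPH genes, of which 8 of 25 had a site and 7 of these held it. Their median score was 464.21, and those with a full ARE included ME1 (891.96), the quinone reductase NQO1 (730.44), ferrochelatase FECH (584.23), AIFM2 (478.98), OSGIN1 (449.43) and PIR (256.52). NADK (219.17), the NAD kinase, held the word TGACGCAGC. Of 23 glutathione genes 8 had a site, with GCLM (637.13), the modifier subunit of glutamate-cysteine ligase, the glutathione reductase GSR (541.71) and the transferase GSTP1 (428.42) at the top and GSTO1 (50.25) at the bottom. A peak with a full ARE (382.55) whose centre lay 8 bp from an annotated start of GCLC, the catalytic subunit of the same ligase, is not among the sites of the sheet. The cystine transporter subunits SLC7A11 and SLC3A2 scored 131.08 and 82.96. GSTP1 and SLC3A2 held a full ARE. Of 16 thioredoxin and peroxide genes 5 had a site, SRXN1 (803.86), TXN (728.89), PRDX1 (447.87), TXNRD1 (431.99) and SOD1 (155.22), and SRXN1 and SOD1 held a full ARE. The median was 447.87, beside 116.06 in the glutathione group.

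The factors of the pathway were themselves near sites. Of 10 genes for CNC and BACH factors, small MAFs and KEAP1, 4 had one by the sheet. MAFG scored 1022.83 and KEAP1, the adaptor that marks NRF2 for degradation, 648.88. NFE2L2, which encodes NRF2, scored 449.59 and NFE2L1, which encodes NRF1, 220.44. The site of NFE2L1 lay upstream, at -419 bp from its TSS, and held no ARE. By the reference annotation, a start of BACH1 lay 166 bp from the centre of a peak with a full ARE (78.15). A start of NFE2L3 lay 143 bp from that of a peak with a degenerate ARE (66.71). Counting both makes 6 of the 10 genes. Of 16 other bZIP and stress factors 5 had a site, CREBZF (429.8), CREM (238.55, full ARE), CEBPB (137.22), CREB5 (58.46) and PPP1R15A (54.28).

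Chaperones, lysosomal genes and aminoacyl-tRNA synthetases were also counted. Of 30 chaperones 7 had a site by the sheet, with a median of 154.15 and the HSP90 cochaperone PTGES3 (524.48) as the highest. By the reference annotation, starts of HSP90AB1 and CCT5 lay 343 and 393 bp from the centres of peaks with a full ARE (154.77 and 87.04). Counting these makes 9 of the 30 chaperones. Of 25 lysosome and V-ATPase genes 5 had a site, all between 65.75 and 120.84, and PSAP held the only full ARE among these 5. GARS1 (205.43) and EPRS1 (59.45) were the only ones of 20 cytosolic aminoacyl-tRNA synthetases.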

How the data were processed

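The authors sequenced 1 NRF1 ChIP library of MG132-treated HCT116 cells, and the submitters' processing notes name CASAVA 1.8.2, Bowtie2 2.2.6, MACS 1.4.2 and hg19. The deposited file gives the position and the MACS score of each peak. The MACS settings, the control library and the treatment of duplicate reads are not given in the sources used here. Distances to a TSS and sheet classes were those of the study's annotation sheet, whose 812 sites within 2 kb all matched a deposited peak, a number that differs from the one in the study's text. AREs were read from the GRCh37 genome, and features and the 19862 promoter windows from GENCODE 44 lifted to GRCh37. Groups of peaks were compared with Fisher's exact test (two-sided, Benjamini-Hochberg over 14 tests) and orientation with an exact binomial test, with Python 3.11.15, scipy 1.17.1, pandas 2.3.3 and pysam 0.24.0. The searches and tests were tested on simulated data. The members, lists and tests were chosen with earlier results of these data known. Named were the 10 highest and 3 lowest scores, the 3 sites on each side of the limit, the 5 highest without an ARE, with most full AREs and at noncoding promoters, and the list genes, some of which are not reported here. Alternatives were a limit of 250 bp, scores of at least 100, TSSs of the reference annotation, distance from the peak edge, the central 200 bp and the gene type of the nearest reference TSS.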

Additional observations from a re-analysis of the deposited data

How the results depend on the processing

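The number of sites was 482 by the annotation sheet, 264 with scores of at least 100, 885 with the TSSs of the reference annotation, which lists more starts, and 1037 with distances from the peak edge. The lower share of full AREs than in both other groups kept its direction and its side of the threshold under every alternative run, but with the TSSs of the reference annotation the TSS-proximal share was 38.3% and the odds ratio against all other peaks 0.326 in place of 0.192. The odds ratio for any ARE against 500 bp to 2 kb was 0.584, and no longer passed with a limit of 250 bp (0.630) or in the central 200 bp (0.749). In the central 200 bp, the score of full against no ARE did not pass (1.57) and the full ARE upstream against downstream passed (1.77). Scores of at least 100 gave passing odds ratios for the score of full against degenerate AREs (1.93), the score upstream against downstream (0.540) and the full ARE upstream against downstream (1.95). The limit of 250 bp gave 2.39 for the last. With the TSSs of the reference annotation the width against 500 bp to 2 kb (1.42), the score of full against degenerate AREs (1.43), the full ARE of coding against noncoding promoters (0.720) and the full ARE upstream against downstream (1.57) passed, and the score upstream against downstream reversed (1.07). The score of coding against noncoding promoters, 1.03 and not past the threshold, reversed with the limit of 250 bp (0.928), the TSSs of the reference annotation (0.860) and the gene type of the nearest reference TSS (0.787), and none of these passed. The cause of these changes was not tested. No paired analysis was possible because 1 ChIP library was analysed. With 1 library and no read counts, the error of a single score is unknown.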
